A study of Mus musculus with 4 samples.

Results

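The histone cluster genes are the families that encode the core histones H2A, H2B, H3 and H4 and the linker histone H1 from tight clusters in the genome. They were taken as every gene symbol that starts with Hist1h, Hist2h, Hist3h or Hist4 and that has at least 20 UMIs (unique molecular identifiers, each counting 1 captured RNA molecule) over 4 single-cell libraries of mouse cerebellum. Of 67 such symbols, among 32285 genes in the tables, 63 were members: 6 for H1, 16 for H2A, 16 for H2B, 12 for H3 and 13 for H4. The 4 symbols left out had at most 4 UMIs, and the member with the fewest, Hist1h1t, had 67. Of the members, 51 lie in the Hist1 cluster on chromosome 13, 9 in Hist2 on chromosome 3, 2 in Hist3 on chromosome 11 and 1, Hist4h4, on chromosome 6.

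Most of these genes are replication dependent: they are transcribed as DNA is copied, so that new chromatin can be packed. Their mRNAs are mostly unspliced and end in a short stem-loop that is bound by the protein Slbp and trimmed with the help of the U7 small nuclear RNP, in place of a poly(A) tail. Some members also give polyadenylated mRNA, which is seen in cells that have left the cycle. In the postnatal cerebellum the main dividing cells are the granule cell progenitors of the external granule layer, marked by the transcription factor Atoh1, which leave the cycle to become granule neurons. Droplet libraries prime cDNA on poly(A), and how the histone RNAs came to be primed here was not tested.

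The study, on Eftud2 deficiency in Purkinje cells, compared wild type (WT) mice with mice labelled Eftud2 cKO, a conditional knockout, at postnatal day 10 (P10) and postnatal day 14 (P14). The Eftud2 protein is a GTPase in the U5 particle, a core part of the spliceosome. Each of the 4 groups was 1 library made with the 10x Genomics system from the dissociated whole cerebellum without meninges. The Cre driver, strain, sex and number of animals per library are not given in the sources used here. With 1 library per group, a difference between genotypes or ages cannot be told apart from a difference between libraries, and no test of genotype within an age was possible.

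The gene models of all 63 members were read first, because they bear on what the counts can resolve. In the annotation (GRCm38, GENCODE vM21) 59 members had no intron and 4 had one, all of them H2B genes: Hist1h2bc, Hist1h2be, Hist1h2br and Hist1h2bp. The 16-base stem-loop was found in at least 1 annotated transcript of 43 members, searched over the whole transcript. Of 58549 coding transcripts of other genes, 13 held it in their last 200 bases (0.0222%). The 2 counts thus differ in the stretch searched and in the unit, genes against transcripts. Of the 20 members without it, 13 had models that stop within 2 bases of the stop codon, so that the place where it would lie was not annotated, as for Hist1h1b. The 3 most frequent forms and 1 of a tied pair are given here with the loop in capitals, each under the name of 1 member that holds it, because they are what sets these genes apart from other coding genes. The form of Hist1h1e was held by 25 members, that of Hist1h4d by 7, that of Hist1h3c by 6 and that of Hist1h4i by 2, while another form was also held by 2 members and a last one by 1.
Hist1h1e: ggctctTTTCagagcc
Hist1h4d: ggccctTTTCagggcc
Hist1h3c: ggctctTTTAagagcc
Hist1h4i: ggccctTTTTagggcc

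Promoters of 58 members were matched in the RefSeq table (GRCm38.p6), each spanning 250 bases before to 50 after the start of the gene. Counting both strands, CCAAT was present in 84.5% of them and in 37.9% of all 27025 promoters. Every matched H1, H2A, H2B and H3 promoter held it, and 25% of the H4 promoters did. TATAAA was present in 56.9% of member promoters and 14.2% of all. ATTTGCAT (19.0% against 1.75%) and TTTCGCGC (15.5% against 0.318%) were found in H2A and H2B promoters and in none of the matched H1, H3 and H4 promoters. The first was in 6 of 16 H2A and 5 of 14 H2B promoters, and the second in 5 of 16 and 4 of 14. None of the 4 motifs contains another, and a match describes letters and not a bound site. The promoters of Hist1h1b (chr13:21780576-21780875, minus strand), of the H2A gene Hist1h2ah (chr13:22035594-22035893, minus strand) and of Hist3h2ba (chr11:58948661-58948960, plus strand) are printed. Hist1h1b is the H1 gene with the most UMIs, and Hist3h2ba was lower in late S than outside the cycle. Hist1h2ah was chosen because it holds all 4 motifs, unlike most H2A promoters. Capitals mark the motifs on either strand.
Hist1h1b: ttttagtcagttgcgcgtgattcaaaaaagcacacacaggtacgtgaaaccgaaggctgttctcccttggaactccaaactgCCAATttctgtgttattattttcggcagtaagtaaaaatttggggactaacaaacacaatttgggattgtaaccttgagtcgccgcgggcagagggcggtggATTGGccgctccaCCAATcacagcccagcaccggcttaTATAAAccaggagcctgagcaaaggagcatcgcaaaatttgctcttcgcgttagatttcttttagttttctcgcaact
Hist1h2ah: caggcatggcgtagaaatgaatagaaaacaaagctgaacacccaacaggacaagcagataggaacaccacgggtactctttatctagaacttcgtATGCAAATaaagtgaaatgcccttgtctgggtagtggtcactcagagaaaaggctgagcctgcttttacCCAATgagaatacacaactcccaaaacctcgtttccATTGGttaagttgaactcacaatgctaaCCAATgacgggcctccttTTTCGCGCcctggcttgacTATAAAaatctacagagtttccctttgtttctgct
Hist3h2ba: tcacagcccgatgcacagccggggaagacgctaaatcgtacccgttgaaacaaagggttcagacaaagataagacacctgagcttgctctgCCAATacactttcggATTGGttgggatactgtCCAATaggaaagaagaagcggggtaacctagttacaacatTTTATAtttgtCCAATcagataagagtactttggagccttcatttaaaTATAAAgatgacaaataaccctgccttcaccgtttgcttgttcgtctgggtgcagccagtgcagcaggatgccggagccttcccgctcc

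Several members cannot be fully told apart by short reads. In 24 of 63 members less than 50% of the 91-base pieces of the transcript were unique to the gene, among them Hist1h2ap (7.65%) and Hist1h2ao (7.18%). Values of such members depend on how reads were shared between near-identical copies and are uncertain for each gene, and less so for the sum. In addition 22 members overlap another annotated gene. Hist1h1e overlaps the end of Hist1h2be, an H2B gene on the same strand, so reads in that overlap cannot be told apart.

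The 4 libraries held 41164 cells after filtering (13723 and 6417 for WT and cKO at P10, 14876 and 6148 for WT and cKO at P14, the order used throughout), with median depths of 8325, 10872, 7699 and 12209 UMIs. Cell classes were assigned by marker genes, and no cell passed the gate for Purkinje cells, so the levels below are those of the other cells of the cerebellum. Eftud2 was at 42.0, 42.7, 35.4 and 38.5 CPM (UMIs of the gene per 1000000 UMIs of the summed cells) in granule neurons, and so was not lower in the cKO libraries there at either age. Pairs of libraries shared 12 to 83 cell barcodes. By the file headers, Cell Ranger 5.0.0 made the P10 WT counts, 7.0.1 those of P10 cKO and 7.1.0 those of the P14 libraries. In late S cells 21.7% of genes were higher by over 2-fold in P10 cKO than in P10 WT and 18.2% in P14 WT than in P10 WT, against 1.26% in P14 cKO than in P10 cKO, so the P10 WT library stood apart over all genes.

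Cells of the granule lineage were placed in the cycle by 32 S-phase and 39 G2/M genes, none of them a histone gene, at a threshold of 20 UMIs per 10000 in the cell. Cells above the S threshold alone were called S, those above both late S, those above the G2/M threshold alone G2M, and Atoh1-positive cells below both progenitors outside the cycle. These states are ranges of a score and not cell types. In late S cells the median S score was 33.9, 37.1, 40.6 and 38.3 per 10000. Their median G2/M score was higher, at 111, 88.0, 92.1 and 86.9, and in G2M cells it was 128, 108, 136 and 148. Late S is thus the name of a gate, and how far it holds cells in G2 was not tested. Of 6240, 4722, 10668 and 3531 granule lineage cells, 1054, 350, 561 and 134 lay between 15 and 25 on the S score, and 297, 128, 172 and 49 on the G2/M score. The cycling share was 56.8%, 27.0%, 20.0% and 15.0%.

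Histone cluster RNA was highest in late S cells. Summed over all members it was at 12767, 12252, 6106 and 13341 CPM in late S cells. In S cells the sum was 784, 703, 465 and 732 CPM, so that late S was 16.3, 17.4, 13.1 and 18.2 times higher. In G2M cells it was 4324, 4764, 2456 and 4277 CPM. The order late S, G2M, S was the same in each of the 4 libraries. Progenitors outside the cycle were at 641, 562, 592 and 705 CPM and granule neurons at 610, 406, 581 and 706 CPM, close to the S cells, which they exceeded in P14 WT alone.

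**Figure D1:**
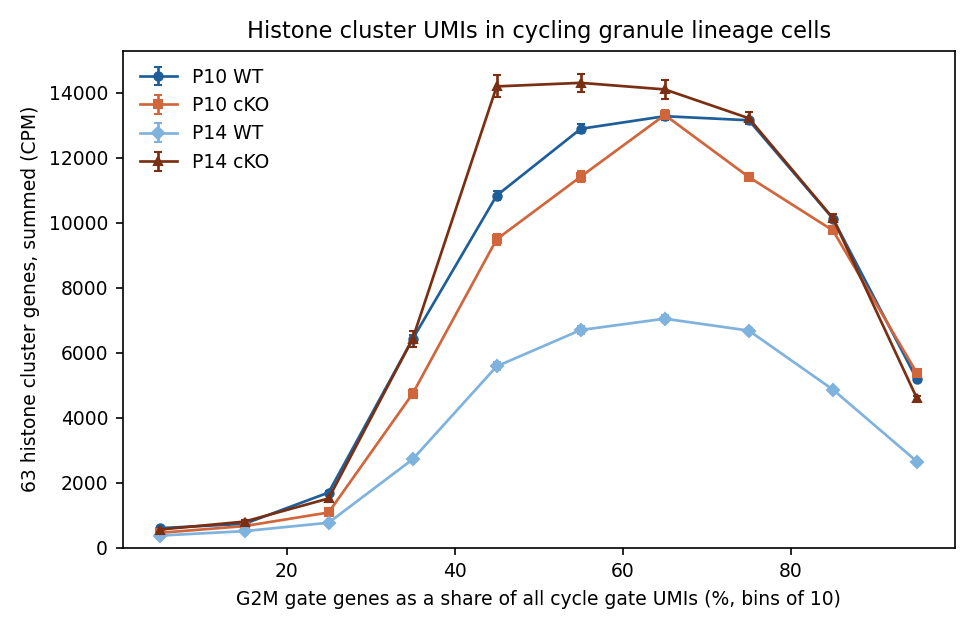
Summed histone cluster level in cycling granule lineage cells, in CPM, against position in the cycle, given as the G2/M share of the S plus G2/M gate UMIs in bins of 10 percentage points, with 1 line per library and bars for exact Poisson intervals. In the bin from 60 to 70% the sum was 13272, 13310, 7046 and 14095 CPM, and the P14 WT line lies below the other 3 in every bin.

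The position along the G2/M share gave the same picture without states, from 606, 463, 377 and 563 CPM in the bin from 0 to 10% up to the plotted peak. The highest bin was that from 60 to 70% in P10 WT, P10 cKO and P14 WT and that from 50 to 60% in P14 cKO, at 14297 CPM. Single late S cells had medians of 13633, 14519, 6708 and 14370 CPM. The G2M class was mixed: its median cell held 1015, 1045, 882 and 1114 CPM, while the cell at its 95th percentile held 16904, 16535, 7621 and 17282 CPM. Late S cells were also deeper than the average cell, with median totals of 13783, 19104, 15018 and 23842 UMIs. CPM are relative to that total, so a change in RNA per cell and a change in histone RNA cannot be told apart.

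Every member that could be tested was higher in late S than in S. In edgeR's quasi-likelihood test, with the library as a block and adjusted over 13171 genes, 60 of 63 members passed the low-count filter, and all 60 rose, against 21.4% of all genes called higher and 16.8% called lower. The median difference was 3.57 on the log2 scale, and that of all genes was -0.01. With that block, the p-values rest on how far the difference between states varied among these 4 libraries, which differ in genotype and age. Since members were kept by that filter partly through their late S level, the count without it is also given: 62 of 63 were called higher.

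The linker histone H1 gene Hist1h1b was the most abundant member, with 277761 UMIs. Its level was 3457, 3307, 2113 and 3658 CPM in late S, 182, 169, 107 and 160 CPM in S and 69.4, 61.4, 33.9 and 44.4 CPM in progenitors outside the cycle. The late S and S ranges did not overlap, and the fitted difference was 4.42 (SE 0.04, adjusted p = 3.15e-22 in edgeR). Hist1h1a, another H1 gene, rose by 4.28 (SE 0.10), Hist1h1e by 3.57 (SE 0.05) and Hist1h1c by 3.37 (SE 0.08). Hist1h1e and Hist1h1c are H1 genes also expressed in non-dividing cells, and they kept 111, 82.4, 106 and 195 CPM and 17.7, 10.1, 14.6 and 18.3 CPM in granule neurons.

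Among H2A genes, Hist1h2ap was at 3561, 2606, 450 and 1749 CPM in late S. It was at 111, 77.3, 8.59 and 36.8 CPM in S, so that the late S and S ranges did not overlap although the libraries differed widely from each other in both states. The fitted rise was 5.27 (SE 0.06). Hist1h2ae was at 1379, 1148, 677 and 1325 CPM in late S and 46.1, 33.4, 15.1 and 24.3 CPM in S, a rise of 5.30 (SE 0.07). All 16 H2A members were called higher, with a median of 4.08, and the highest value of all members was that of Hist1h2ab, at 5.65.

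The 16 H2B members had a median rise of 3.77 and included the smallest rise of all tested members. Hist3h2ba, the H2B gene with the most UMIs, was at 51.2, 39.4, 77.6 and 90.2 CPM in late S and 34.4, 23.3, 63.6 and 57.8 CPM in S, higher in late S in each library although the ranges overlapped. Its rise of 0.61 (SE 0.08, edgeR adjusted p = 4.92e-06) was that smallest value. Hist1h2bc rose by 0.84 (SE 0.19) and Hist2h2be by 1.42 (SE 0.24).

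Of the 12 H3 members 10 were tested, and all 10 rose, with a median of 3.91. Hist1h3c was at 240, 166, 154 and 336 CPM in late S and 12.1, 11.1, 5.25 and 11.3 CPM in S, and Hist1h3e rose by 4.24 (SE 0.10). The 13 H4 members had the smallest family median, 2.78. Hist1h4d was at 406, 720, 244 and 916 CPM in late S and 29.9, 60.7, 19.4 and 60.6 CPM in S, a rise of 3.80 (SE 0.05). Hist1h4h rose by 3.25 (SE 0.08), and Hist4h4, which never passed 3 CPM in any granule lineage state, by 2.41 (SE 0.56).

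The gene models went along with these differences. Members with a poly(A) signal in the last 50 bases had a median rise of 2.55 (14 members) and those without one 3.80 (46 members). Members whose model runs over 100 bases past the stop codon had a median of 3.49 and the shorter ones 3.78. These are medians of models and fits from the same genes and were not tested. The RNA sum was carried by few members: in late S, Hist1h1b made up 27.1%, 27.0%, 34.6% and 27.4% of it and Hist1h2ap 27.9%, 21.3%, 7.36% and 13.1%, and the 4 leading members of each library 73.5%, 66.5%, 64.7% and 60.8%.

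G2M cells stood between the other states. Against S, 58 members were tested over 13361 genes and 56 were called higher, with 23.8% of all genes called higher and 26.5% lower, and the median was 2.37 against -0.02 for all genes. The 2 members not called were Hist1h4a, at 6.46, 5.10, 1.56 and 3.87 CPM in G2M and 5.95, 3.32, 1.43 and 4.04 CPM in S, and Hist1h3a, at 7.1, 8.42, 4.79 and 7.48 CPM in G2M and 7.63, 7.97, 3.82 and 8.49 CPM in S. In both the G2M and S values lay close together, with differences of 0.27 (SE 0.24, edgeR adjusted p = 0.376) and 0.08 (SE 0.18, edgeR adjusted p = 0.738). Without the filter 58 of 63 were called higher. The call count depends on the threshold: at 10 UMIs per 10000 it was 33.

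Between S cells and progenitors outside the cycle, members differed in both directions. S, late S and G2M cells were not selected on Atoh1 as the progenitors were, so these groups differ in that selection too. Against progenitors outside the cycle, 37 members passed the filter and 13 rose, 5 fell and 19 were not called, against 23.4% of 12732 genes called higher and 21.5% lower, so the shares are not far from the background. The median was 0.46 and that of all genes -0.01. The 4 members with the highest values were Hist1h3a at 1.84 (SE 0.29), Hist1h1b at 1.56 (SE 0.08), Hist1h4a at 1.44 (SE 0.44) and Hist1h1a at 1.38 (SE 0.23), and all 4 were among those called higher. Hist1h3a was at 2.23, 2.08, 1.21 and 2.09 CPM outside the cycle and 7.63, 7.97, 3.82 and 8.49 CPM in S, ranges that did not overlap. The number called higher changed with the setting: 4 in DESeq2, 6 at a threshold of 10, 34 at 40, and 1 with cells thinned to 2000 UMIs.

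The 5 that fell were Hist3h2a at -1.84 (SE 0.13), Hist1h2bc at -1.66 (SE 0.11), Hist3h2ba at -1.02 (SE 0.08), Hist1h1c at -0.72 (SE 0.14) and Hist1h1e at -0.22 (SE 0.07). Hist1h2bc was at 70.6, 36.4, 117 and 90.8 CPM in progenitors outside the cycle and 24.9, 7.53, 40.6 and 27.1 CPM in S. It was lower in S in all 4 libraries, although the ranges overlapped between libraries. Hist3h2a was at 29.6, 16.9, 55.8 and 56.9 CPM outside and 9.67, 5.76, 14.0 and 13.7 CPM in S, and there the ranges did not overlap. Hist1h1e changed sign at a threshold of 40, to 0.68.

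**Figure D2:**
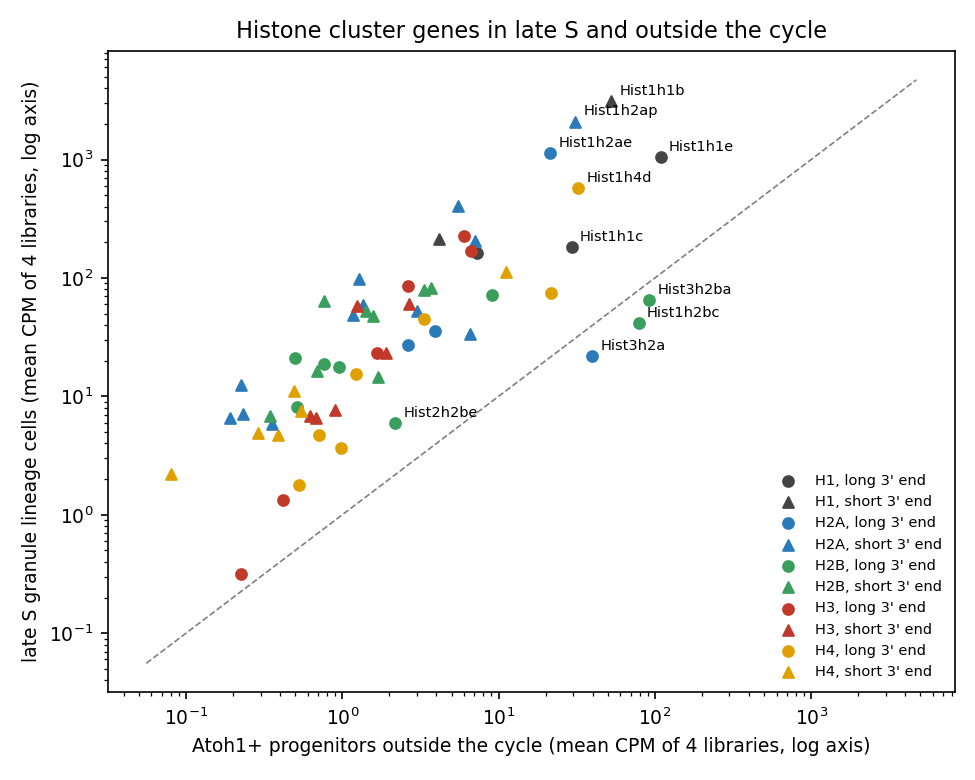
Mean CPM over the 4 libraries of each member in late S granule lineage cells (vertical log axis) against Atoh1-positive progenitors outside the cycle (horizontal log axis), with colour for the family, circles for a long and triangles for a short annotated 3′ end, and the dashed line for equal levels. Most points lie above the line, and Hist1h2bc, Hist3h2a and Hist3h2ba lie below it.

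Late S was also set directly against progenitors outside the cycle, a comparison added after the data were seen. Of 59 members tested over 12923 genes, 56 rose and 3 fell, against 28.3% of all genes called higher and 25.6% lower, with a median of 4.22 and of -0.02 for all genes. The 3 that fell were Hist1h2bc at -0.73 (SE 0.18), Hist3h2a at -0.68 (SE 0.12) and Hist3h2ba at -0.36 (SE 0.11). Since members passed the low-count filter partly through their late S level, the counts without it are also given: 59 of 63 were called higher and 3 lower. Without the P14 WT library 1 member was called lower. Hist1h2ap rose by 6.22 (SE 0.16) and Hist1h1b by 6.01 (SE 0.09).

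In granule neurons, which have left the cycle, most members that were called fell. Against progenitors outside the cycle, 42 members were tested over 14786 genes, 2 rose, 18 fell and 22 were not called, with 20.7% of all genes called higher and 18.7% lower, and a median of -0.78 against 0.01 for all genes. Members passed the low-count filter partly through their level in progenitors, so the count that fell depends on which members were tested. The 2 that rose are neighbours in the Hist3 cluster. Hist3h2ba was at 107, 85.9, 232 and 210 CPM in neurons and 57.6, 46.8, 144 and 120 CPM in progenitors, a rise of 0.88 (SE 0.06). Hist3h2a was at 61.4, 41.3, 109 and 95.3 CPM in neurons and 29.6, 16.9, 55.8 and 56.9 CPM in progenitors, a rise of 1.06 (SE 0.08). Both were higher in neurons than in progenitors in all 4 libraries, and both were higher at P14 than at P10 in either genotype.

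The largest fall among the named members in neurons was that of Hist1h2bc, to 24.2, 10.2, 22.0 and 21.5 CPM, by 1.93 on the log2 scale (SE 0.12). Hist1h1b was at 53.5, 21.9, 15.0 and 15.2 CPM in neurons, lower than in progenitors in all 4 libraries, and fell by 1.03 (SE 0.16). Hist1h1c fell by 0.90 (SE 0.11) and Hist1h3c by 1.42 (SE 0.28). Hist1h1e, at 0.23 (SE 0.09, edgeR adjusted p = 0.0698), Hist1h4d, at 0.31 (SE 0.11, edgeR adjusted p = 0.0516), and Hist1h2ap, at -0.54 (SE 0.23, edgeR adjusted p = 0.0857), were not called. The number called lower was 7 at a threshold of 10 and 34 at 40, 3 in thinned cells, 11 without P10 cKO and 10 without P14 WT. The number called higher was 4 without P10 cKO.

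Outside the cycle the members differed between cell classes. Each of 11 classes was set against the mean of the others over 15594 genes, of which 30 were members. In granule neurons 13 members were called higher and 6 lower, against 40.1% and 24.8% of all genes, and in Atoh1-positive progenitors 14 and 2, against 30.0% and 26.1%. In GABAergic interneurons the counts were 6 and 7 (31.1% and 28.8% of all genes), in astroglia 5 and 9 (35.0% and 26.2%), in oligodendrocyte precursors 1 and 8 (31.7% and 24.6%) and in oligodendrocytes 11 and 9 (34.2% and 28.2%). They were 6 and 2 in microglia (31.8% and 28.5%) and in border macrophages (27.8% and 28.7%), 7 and 2 in blood leukocytes (21.2% and 24.6%), 2 and 7 in endothelial cells (32.9% and 24.6%) and 6 and 5 in fibroblasts (34.4% and 23.6%). With 30 members the shares are coarse, and they lay both above and below the background. Some classes were small: blood leukocytes were 129, 21, 90 and 34 cells, and border macrophages 1231, 115, 52 and 128. The median blood leukocyte held 4, 3, 4 and 4 of its own markers, at or near the minimum of 3.

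Hist3h2ba was high in neurons and the oligodendrocyte lineage. It was at 205, 209, 182 and 205 CPM in oligodendrocytes, 123, 89.9, 217 and 208 CPM in GABAergic interneurons and 95.4, 85.5, 106 and 97.7 CPM in oligodendrocyte precursors. In microglia it was at 5.56, 3.79, 16.5 and 14.9 CPM and in endothelial cells at 2.17, 2.59, 8.73 and 4.95 CPM, so that these ranges lay far below. The fitted differences were 3.19 in oligodendrocytes, 2.36 in granule neurons, 2.16 in interneurons and 1.5 in precursors, and -1.77 in microglia and -3.13 in endothelial cells, all called in edgeR at an adjusted p under 0.05. Hist3h2a was at 92.8, 62.6, 135 and 121 CPM in interneurons.

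Hist1h2bc had a profile of its own. It was at 310, 228, 249 and 306 CPM in oligodendrocytes, 254, 179, 246 and 216 CPM in fibroblasts and 119, 91.1, 277 and 200 CPM in astroglia, all above the 24.2, 10.2, 22.0 and 21.5 CPM of granule neurons. It was called higher in oligodendrocytes (2.60), fibroblasts (2.13) and astroglia (1.57) and lower in interneurons (-2.96) and granule neurons (-1.90). Hist3h2ba and Hist1h2bc, both H2B genes, thus had fitted differences of opposite sign in both neuronal classes and of the same sign in oligodendrocytes. In P14 cKO the oligodendrocytes had a median of only 2900 UMIs, against 13924, 33051 and 25441 in the other libraries.

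The H1 genes also differed by class. Hist1h1c was at 131, 119, 143 and 76.8 CPM in fibroblasts, 91, 29.5, 80.3 and 108 CPM in border macrophages and 74.6, 52.4, 67.9 and 44.8 CPM in microglia. It was called higher in fibroblasts (2.16), border macrophages (1.56), oligodendrocytes (1.34) and microglia (1.16) and lower in interneurons (-2.73) and oligodendrocyte precursors (-2.07). Hist1h1e was called higher in granule neurons (1.16) and lower in fibroblasts (-1.0). Of the other members, Hist2h2be was called higher in astroglia (2.30) and border macrophages (1.70), Hist4h4 in fibroblasts (2.06) and microglia (1.96), and Hist1h4d in granule neurons (0.66), with Hist1h4d lower in oligodendrocytes (-1.33).

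**Figure D3:**
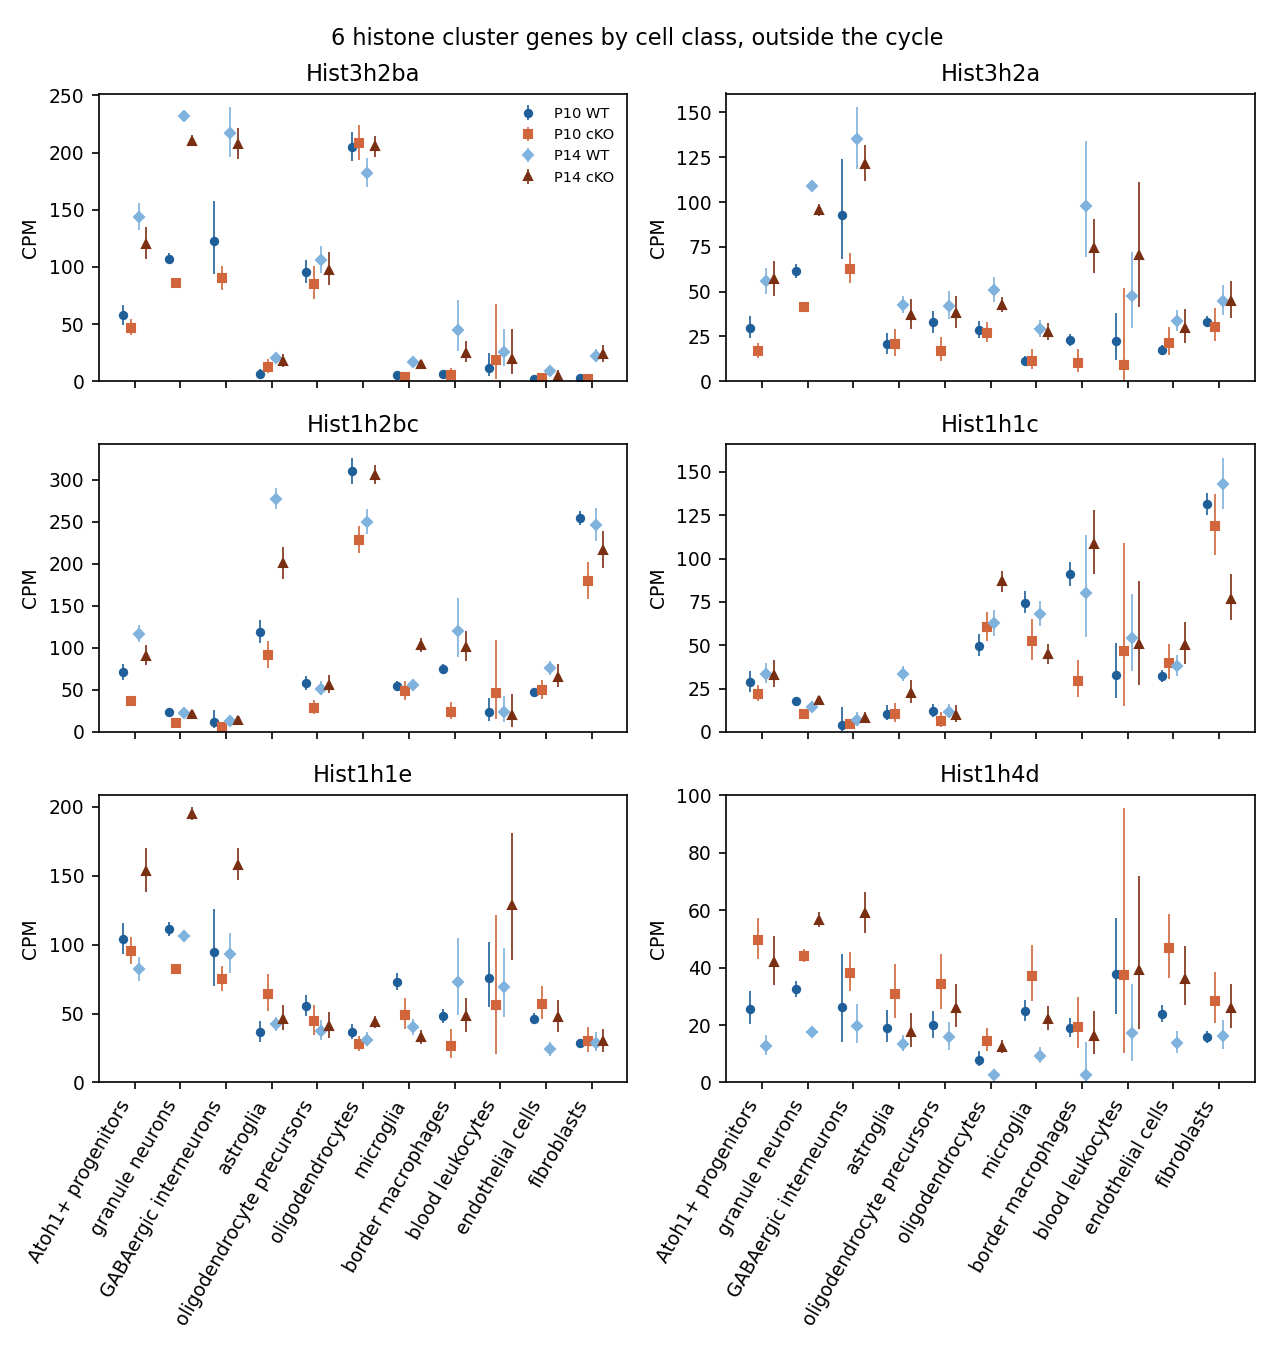
CPM outside the cycle of Hist3h2ba, Hist3h2a, Hist1h2bc, Hist1h1c, Hist1h1e and Hist1h4d by cell class, with 1 point per library and bars for exact Poisson intervals. Hist3h2ba lies high in neurons and oligodendrocytes and low in microglia and endothelial cells, and Hist1h2bc lies high in oligodendrocytes, fibroblasts and astroglia.

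The member Hist1h1b was also detected in other classes outside the cycle. In endothelial cells outside the cycle it was at 14.0, 12.3, 4.62 and 2.12 CPM. In microglia outside the cycle it was at 31.9, 8.83, 9.67 and 7.76 CPM. P10 WT was the highest library in both classes. RNA released by other cells can give such UMIs in droplets. The share of cells with a member UMI was compared after thinning each cell to 2000 UMIs, which evens out depth but cannot separate free RNA. It was 95.9%, 96.3%, 93.7% and 98.1% in late S, 67.2%, 51.8%, 65.0% and 68.1% in granule neurons and 42.6%, 46.6%, 37.0% and 47.9% in endothelial cells. Unthinned shares were 99.4%, 99.8%, 99.5% and 100% in late S, 91.5%, 87.3%, 88.1% and 91.9% in granule neurons and 90.4%, 82.9%, 85.8% and 86.7% in endothelial cells. The part of free RNA in the sum outside the cycle was not tested.

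Late S cells of other classes also had high sums. In microglia 27, 6, 13 and 7 late S cells were at 4507, 7318, 2309 and 6577 CPM, against 444, 334, 292 and 326 CPM outside the cycle. In oligodendrocyte precursors 55, 9, 18 and 11 late S cells were at 11236, 6828, 5414 and 8552 CPM, against 440, 328, 336 and 368 CPM outside it. The sum was thus higher in late S in each library of both classes, although the number of cells is small and no test was made. P14 WT had the lowest late S sum in both classes, as in the granule lineage.

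Among late S granule lineage cells the 4 libraries did not have like sums. Between the P10 libraries the late S sum differed by -0.06 on the log2 scale as cKO over WT (95% interval of the counts -0.07 to -0.05). At P14 it was 1.13 higher in cKO than in WT (1.11 to 1.14). Between ages it was 1.06 lower at P14 in WT and 0.12 higher at P14 in cKO, so that P14 WT stood apart from the other 3 libraries. These intervals cover counting error alone, UMIs of 1 cell are not independent, and the comparisons share libraries.

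Most members took part. Of the 57 members with at least 50 UMIs in late S over both P14 libraries, 52 were higher in cKO, 36 of them by over 2-fold, and none was lower by over 2-fold. Over all 11707 genes at that depth 1.53% were higher by over 2-fold and 0.495% lower, with a median of -0.01 against 1.18 for the members. At P10, 34 of 61 members were higher in cKO, 8 by over 2-fold, and 1 was lower by over 2-fold. The median was 0.06, near the 0.04 of all genes. There 21.7% of all 12812 genes were higher in cKO by over 2-fold and 2.91% lower, so the P10 count of members higher in cKO is below the background. All 8 were members with under 50% unique pieces. The 38 others ranged from -0.89 (Hist3h2a) to 0.98 (Hist1h4c) at P10. From P10 to P14 in WT, 3 of 61 members were higher and 17 lower by over 2-fold, against 18.2% and 3.74% of all genes, and in cKO 3 of 58 were higher and 1 lower, against 1.26% and 1.62%. These comparisons share libraries with those of genotype. At P14, 18 of 21 members with under 50% unique pieces and 18 of 36 others were higher by over 2-fold.

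**Figure D4:**
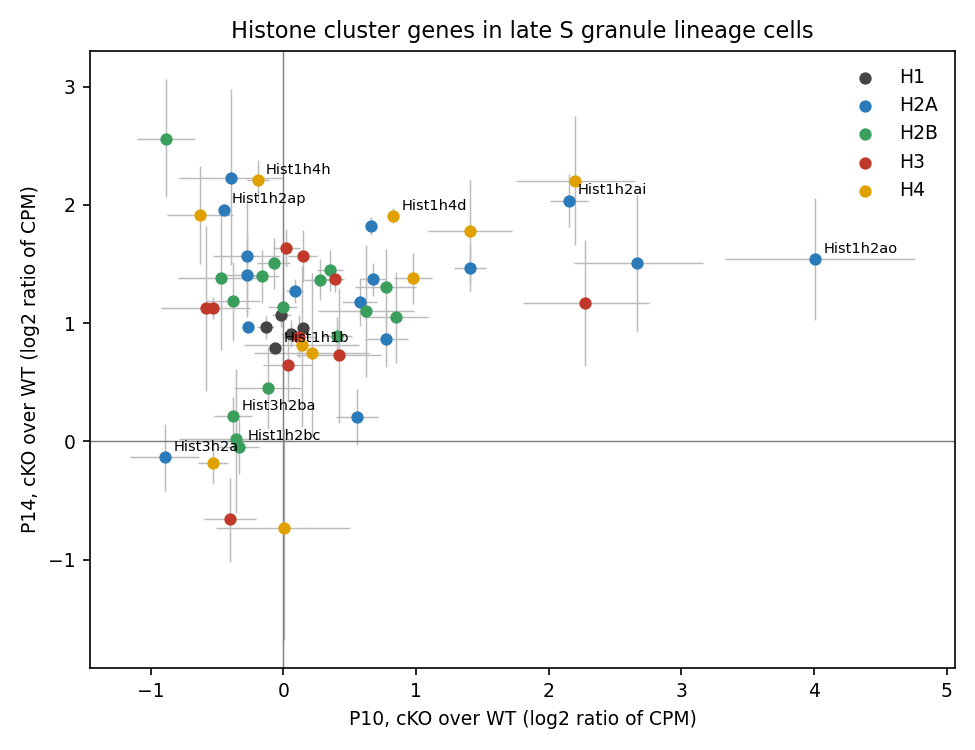
Log2 ratio of cKO over WT in late S granule lineage cells for 57 members, P14 on the vertical and P10 on the horizontal axis, coloured by family, with bars for counting intervals. The points spread on both sides of 0 at P10 and lie mostly above 0 at P14, where 52 are positive.

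The P14 difference reached members of all 5 families. By log2 ratio of cKO over WT at P14 with its counting interval, Hist1h1b was at 0.79 (0.77 to 0.82), Hist1h1e at 0.96 (0.91 to 1.00), Hist1h2ae at 0.97 (0.92 to 1.01), Hist1h3c at 1.13 (1.04 to 1.22) and Hist1h4h at 2.21 (2.04 to 2.38). Hist1h4h was at 147, 128, 30.8 and 142 CPM in late S, so that P14 WT alone was low. Hist1h2bc was at -0.04 (-0.28 to 0.19), Hist3h2a at -0.13 (-0.42 to 0.15), Hist2h2be at 0.02 (-0.61 to 0.61) and Hist3h2ba at 0.22 (0.06 to 0.37), so that these 4 named members lay near 0. Of the 57 members at that depth 5 were lower in cKO, and the lowest values were those of Hist2h4 at -0.73 (-1.68 to 0.11), whose interval includes 0, and Hist1h3d at -0.66 (-1.02 to -0.31). Hist1h2bc was at 46.6, 37.0, 41.8 and 40.5 CPM in late S, with P14 WT within the range of the others.

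Some members differed between the P10 libraries by more than the sum did. In late S at P10, 34 of 61 members were higher in cKO, so the sign seen for Hist1h4d was not particular to it. The median was 0.06 for members and 0.04 for all genes, so that count is not particular to the members either. Hist1h4d was higher in cKO than in WT at both ages, in late S by 0.83 (0.79 to 0.87) at P10 and 1.91 (1.85 to 1.97) at P14, and in granule neurons it was at 32.5, 44.1, 17.7 and 56.7 CPM. Hist1h2ap, with few unique pieces, was at 59.0, 18.5, 3.53 and 8.63 CPM in granule neurons, highest in P10 WT in every granule lineage state. In granule neurons at P14, 8 of 34 members were higher in cKO by over 2-fold and none lower, against 5.85% and 1.16% of all genes. At P10, 8 of 29 were lower in cKO by over 2-fold and 1 higher, against 6.11% and 23.9%.

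Over both ages together no member was called for genotype. The edgeR fit with age and genotype has 1 residual degree of freedom. It called 0 of 62 members in late S granule lineage cells and 0 of 37 in S. In granule neurons it called 0 of 51 and in microglia 0 of 22. At an unadjusted p under 0.05 it had 12 members in late S, with 86 of 14177 genes so. In S there were 3 members so, with 92 of 12377 genes. There were 0 in granule neurons, with 399 of 16309 genes so, and 0 in microglia, with 358 of 12152. DESeq2 called 0 members in each of the 4. The lowest p in late S was 0.00188 in edgeR, for Hist1h2ai at 2.04 (SE 0.31), with an adjusted p of 0.918. In simulated data of the same size the late S fit found 0% of 2-fold and 2.04% of 4-fold changes, so a count of 0 says little here.

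The number of genes with their lowest late S level in P14 WT was counted among those with at least 50 UMIs in late S over the 4 libraries. It was 43 of 61 members (70.5%) and 2098 of all 13613 genes (15.4%). Among the other lists it was 3 of 18 genes of histone mRNA regulation and processing and 2 of 14 chaperone and acetyltransferase genes. It was 0 of 11 histone variant genes without a cluster symbol, H2afx among them. These counts were not tested and were added after the data were seen. Slbp, which binds the stem-loop, was at 237, 220, 235 and 248 CPM in late S. Nasp, a chaperone of H1 and H3, was at 788, 729, 783 and 786 CPM, and H2afz, which encodes the replication-independent variant H2A.Z, at 6043, 4035, 4845 and 4546 CPM. P14 WT was the lowest library for none of these 3. Against progenitors outside the cycle, S cells had 12 of 17 tested genes of histone mRNA regulation and processing called higher and 1 lower. Of the chaperones and acetyltransferase genes 8 of 14 were called higher and 0 lower. Of the histone variants 6 of 11 were called higher and 3 lower. Over all 12732 genes in that comparison, 23.4% were called higher and 21.5% lower. Slbp rose there by 1.98, Nasp by 1.53 and Asf1b, a chaperone of H3 and H4, by 4.35.

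From S to late S, where 21.4% of all genes were called higher and 16.8% lower, 6 of the processing genes were called higher and 3 lower, 5 of the chaperones higher and 4 lower, and 9 of the variants higher and 0 lower, with Cenpa, the centromeric H3, at 4.49, H2afx at 2.94 and H2afz at 0.91. The 60 tested cluster genes, by comparison, were all called higher in that step. By Pearson correlation of log2 CPM over 56 combinations of class, state and library, the genes with the profile most like the histone sum among 13331 were Gtse1 (0.914), itself 1 of the G2/M genes, Prr11 (0.909), Ncapg (0.906), H2afx (0.903) and Depdc1a (0.902). The points share libraries and depth, and the correlations are a description.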

How the data were processed

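The deposited files are raw UMI counts per gene and cell barcode that the authors made for each library with Cell Ranger, per the file headers (5.0.0, 7.0.1, 7.1.0 and 7.1.0). Per the submitters' processing notes, the build was mm10, with Seurat 4.1.3 and a different Cell Ranger version, 3.0.2. Which annotation and which intron setting were used is not given in the sources used here. Barcodes with at least 500 genes and at most 20% mitochondrial UMIs were kept, and Scrublet doublets were removed at 1 score threshold for all libraries, that of P14 cKO, because its automatic thresholds called 0% in P10 cKO and P14 WT. Cells were assigned to 14 classes by 142 markers (at least 3 detected, and 2 more than the next class), with 3636 cells left unassigned. UMIs were summed per class, state and library and tested with edgeR 4.0.16 (R 4.3.3; TMM, filterByExpr with a minimum count of 10, quasi-likelihood F test, Benjamini-Hochberg adjusted p threshold 0.05), with the library as a block. The 4 libraries are the replicates there, although they differ in genotype and age. Ratios between libraries use members with at least 50 UMIs in the pair. Intervals are exact at 95% and cover counting error only. Alternatives were DESeq2 1.42.0, no TMM, no filter, doublets kept, a minimum of 1000 genes, a margin of 1 marker, cycle thresholds of 10 and 40, thinning to 2000 UMIs and leaving out each library. Full values are given for the 2 members with the most UMIs per family, the 4 with the highest and the 4 with the lowest ratio of S to outside, and Hist1h1c, Hist1h2bc, Hist2h2be, Hist3h2a, Hist3h2ba and Hist4h4. Other members named outside this rule were chosen after their values were seen. Of simulated 2-fold changes the late S against S fit recovered 93.9% and the neuron fit 81.8%. Members and lists were chosen with earlier results of these data known.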

Additional observations from a re-analysis of the deposited data

Results flagged for a closer look

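The log2 ratio of cKO over WT in late S granule lineage cells had opposite signs at P10 and P14 for the summed members, at -0.06 and 1.13, a difference between ages of 1.19. The same held for Hist1h2ap (-0.45 and 1.96, a difference of 2.41), Hist1h4h (-0.19 and 2.21, a difference of 2.40) and Hist1h4a (-0.63 and 1.92, a difference of 2.54). It held with smaller differences for Hist1h3c (1.66), Hist1h2ae (1.23), Hist1h1a (1.10), Hist1h1b (0.86) and Hist3h2ba (0.60). At P10 the summed members and Hist1h1b (-0.06) lay near 0. The P10 counts came from Cell Ranger 5.0.0 in WT and 7.0.1 in cKO. In late S at P10, 21.7% of all genes were higher by over 2-fold in cKO. Each age has 1 library per genotype, so none of these differences was tested.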

How the results depend on the processing

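States and classes were compared within each library, with the library as the block in every such fit. Genotypes and ages could not be paired, because each group has 1 library. Among the counts and sums reported, 212 values under alternatives stayed within their limits and 36 moved. Among named genes 964 kept their direction and side of the threshold, 42 were no longer called, 18 became called and 8 reversed. With cells thinned to 2000 UMIs fewer members were called: 1 higher and 2 lower in S against outside the cycle, 31 higher in G2M against S, 29 higher and 1 lower in late S against outside the cycle, 3 lower in granule neurons against Atoh1-positive progenitors, and 22 higher and 18 lower over all classes. At a cycle threshold of 10 the counts were 6 higher in S against outside the cycle, 33 higher and 1 lower in G2M against S and 7 lower in neurons, and at 40 they were 34 higher in S against outside the cycle and 34 lower in neurons. DESeq2 called 4 higher in S against outside the cycle, and no filter on low counts gave 4 higher in neurons. Leaving out 1 library gave 9 to 12 higher and 4 to 5 lower in S against outside the cycle, 59 to 61 higher in late S against S, 54 to 56 higher in G2M against S, 55 to 58 higher and 1 to 3 lower in late S against outside the cycle, 2 to 4 higher and 10 to 17 lower in neurons, and 58 to 69 higher and 41 to 50 lower over all classes, where the full fit had 77 and 59.

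The late S log2 ratio of cKO over WT, summed over members, was -0.085 with doublets kept, -0.039 and -0.14 at thresholds of 10 and 40 and -0.11 in thinned cells at P10, and 1.15, 1.05, 1.03 and 1.18 at P14. Shares of cells with a member UMI without thinning were 99.4%, 99.8%, 99.5% and 100% in late S and 91.5%, 87.3%, 88.1% and 91.9% in granule neurons. Reversed values in S against outside the cycle were Hist1h1e at 0.68 and Hist2h2be at -0.64 at a threshold of 40 and Hist2h2be at -0.048 without P10 WT, with a range of -0.048 to 0.21 over the libraries left out. In G2M against S they were Hist1h1a at -0.21, Hist1h4a at -0.72 and Hist1h3a at -0.88 at a threshold of 10 and Hist1h3a at -0.00897 without P14 WT, with a range of -0.00897 to 0.17, and in neurons Hist1h2ap at 0.056 at a threshold of 10. Thinning leaves fewer UMIs and so fewer genes past the filter. The cause of the other changes was not tested. Depth limits the low members, several of which stayed under 3 CPM outside the cycle.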
